A study of Mus musculus with 2 samples.

Results

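The small leucine-rich proteoglycans were followed across the cells of embryonic mouse skin as a set of 8 genes, Dcn, Lum, Ogn, Aspn, Bgn, Fmod, Prelp and Omd. They were found by their symbols in the feature lists, and all 8 were present among the 32286 features counted. Their proteins are secreted into the extracellular matrix and share a core of leucine-rich repeats, on which several carry chondroitin, dermatan or keratan sulfate chains. They bind fibrillar collagens, set the width and spacing of the fibrils, and several also bind growth factors of the TGF-beta family. In skin they are known mainly as products of fibroblasts, and mice that lack decorin have fragile skin with uneven collagen fibrils.

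Single cells of flank skin from E13.5 embryos were counted in 1 control and 1 mutant library, each from 2 to 3 pooled littermate embryos. Mutant embryos came from Axin2CreER mice crossed to Rosa-lox-STOP-lox-SmoM2YFP mice. Axin2CreER is an inducible recombinase made where Axin2, a Wnt target gene, is active, and it removes the stop before SmoM2YFP, a Smoothened that signals without ligand and carries a yellow fluorescent tag. Cells that recombine thus switch on Hedgehog signalling. The control is titled with SmoM2YFP alone and no recombinase, and the age at induction is not given in the sources used here. In both libraries the genotype entry contradicts the title, and the groups here follow the titles. The reporter and the Hedgehog targets went with the titles: dermal cells held 22 eYFP UMIs (0.430 counts per 1000000 UMIs, CPM) in the control and 918 (31.9 CPM) in the mutant library, and Ptch1, the Hedgehog receptor and a direct target of the pathway, stood at 5.67 and 274 CPM. A UMI is a tag that marks 1 captured RNA molecule.

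The control library kept 11527 cells with 96716897 UMIs and a median of 7442 UMIs per cell, and the mutant library kept 8514 cells with 60730262 UMIs and a median of 6662. The libraries shared 37 barcodes among these cells. Cells were grouped by clustering from which the 8 genes had been left out, and classes were named from marker lists, so that dermal stands for dermal-like and so on. The dermal class held 6860 control and 4377 mutant cells, and all 8 of its markers, such as Col1a1, Pdgfra and Twist2, reached 10 CPM in both libraries. It consisted of clusters 0, 1, 2, 3, 4, 7, 8 and 20, of which clusters 1, 8 and 20 were almost entirely from the mutant library and clusters 0, 2, 4 and 7 mostly from the control. Cluster 6, with 1877 control and 758 mutant cells, also had all 8 dermal markers at 10 CPM or more, but Prph, a marker on the neuron list, was among its 10 leading genes and no dermal marker was. Clusters 1, 2, 3, 8 and 20 had no dermal marker among their leading genes either, but none from another list. Cluster 6 was therefore left unnamed and is reported by its number, although its dermal markers summed to 10593 CPM in control and 10523 CPM in mutant cells. Its neuron markers summed to 90.9 and 96.3 CPM. Dermal values with cluster 6 included are given further on for the members and for the companion gene lists. With 1 library per group no difference had a replicate check and no test was made. All intervals are 95% intervals of counting error alone, which leave out the spread between embryos.

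In the mouse genome (GRCm38, GENCODE M21) the 8 protein-coding genes lie on 4 chromosomes, and most sit beside a relative. Aspn (chr13:49544443-49567565), Omd (chr13:49582462-49592822) and Ogn (chr13:49608046-49624501) follow each other on the plus strand of chromosome 13, with gaps of 14897 and 15224 bp between them. Dcn (chr10:97479609-97518143) and Lum (chr10:97565128-97572703) are neighbours on the plus strand of chromosome 10 and lie 46985 bp apart. On chromosome 1, Prelp (chr1:133910304-133921414, minus strand) is followed after 115840 bp by Fmod (chr1:134037254-134048277, plus strand). Bgn (chrX:73483602-73495933, plus strand) is on the X chromosome away from the other members.

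The start regions of Aspn and Ogn are shown because both lie on chromosome 13 and had, together with Bgn, the lowest dermal ratios between libraries. Omd, which lies between them, had a ratio of 1.44 (0.638 to 3.20) on few UMIs. The sequence of Bgn is not printed. RefSeq promoters (GRCm38.p6) were found for 6 of the 8 members, Dcn and Lum excepted. The 250 bases before the start site are printed for Aspn (chr13:49544193-49544442, plus strand) and Ogn (chr13:49607765-49608014, plus strand), with every match to a searched motif in capitals.
Aspn: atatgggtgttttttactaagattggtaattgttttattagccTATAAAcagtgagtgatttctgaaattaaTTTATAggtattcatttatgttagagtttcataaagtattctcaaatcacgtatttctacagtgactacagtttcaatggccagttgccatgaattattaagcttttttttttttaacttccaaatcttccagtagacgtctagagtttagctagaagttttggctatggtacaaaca
Ogn: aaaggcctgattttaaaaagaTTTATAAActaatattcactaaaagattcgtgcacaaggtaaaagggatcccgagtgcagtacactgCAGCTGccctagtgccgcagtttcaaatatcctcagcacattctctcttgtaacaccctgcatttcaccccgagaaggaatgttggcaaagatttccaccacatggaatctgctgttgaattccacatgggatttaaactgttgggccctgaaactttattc
The motifs were searched on both strands in windows from 250 bases before to 50 after the start. TATAAA, the letters of a TATA box, was in 13.6% of 32851 such windows, and CAGCTG, those of an E-box, in 16.3%. AACAAAG, for TCF/LEF factors, was in 5.85% and TGANTCA, for AP-1, in 7.81%. GACCACCCA, for the GLI factors of the Hedgehog pathway, was in 0.253%. A match anywhere in the window was counted, and whether any match acts as a promoter element was not tested. Aspn had TATAAA at -207 and, on the opposite strand, at -178. Ogn had it at -227 and, overlapping it on the opposite strand, at -229, and had CAGCTG at -162. Bgn had CAGCTG at -102. The windows of Fmod, Prelp and Omd held no match to the 5 motifs, and none of the 6 windows held GACCACCCA.

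Dermal cells of the mutant library carried less RNA of asporin, biglycan and osteoglycin as a share of all UMIs, while decorin and lumican differed less. Of the 8 genes, 5 reached 10 CPM in either library, and of these 3 were lower by at least 1.5-fold in the mutant dermis, 0 were higher and 2 were within 1.5-fold. With cells taken by a marker gate in place of clusters the lower members were 2, since Bgn then stood at 0.677. Among all 8126 genes at that level 10.1% were past 1.5-fold either way, 5.34% lower and 4.8% higher. The median log2 ratio of mutant to control, with 1 CPM added to both values, was -0.67 over the 5 members and 0.00 over all these genes. The other 3 members, Fmod, Prelp and Omd, were under 10 CPM in both dermal sums and are in none of these counts.

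Decorin, biglycan and asporin form one branch of the family. Aspn, whose product binds collagen and TGF-beta and carries no glycosaminoglycan chain, stood at 70.2 CPM in control dermal cells (3590 UMIs) and at 19.6 CPM in mutant dermal cells (565 UMIs). This is 3.58-fold lower, a ratio of 0.279 (0.255 to 0.305), and rank 30 from the lowest of the 8126 genes. Bgn, a proteoglycan with chondroitin or dermatan sulfate chains that also signals through Toll-like receptors, stood at 190 CPM in control and 114 CPM in mutant dermal cells. It was 1.67-fold lower (ratio 0.600, 0.576 to 0.624), within the lowest 3.46% of genes by ratio, and short of 1.5-fold with the marker gate. Dcn, which binds collagen and sequesters TGF-beta, stood at 987 CPM in control and 812 CPM in mutant dermal cells, a ratio of 0.823 (0.810 to 0.836). The ratio of Dcn was thus further from 1 than counting error gives but short of the 1.5-fold line.

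Lumican, fibromodulin, Prelp and osteomodulin form another branch, whose members can carry keratan sulfate, and osteoglycin belongs to a further one. Ogn, a small matrix protein linked to collagen fibrils and bone, stood at 131.5 CPM in control and 82.3 CPM in mutant dermal cells, 1.60-fold lower (ratio 0.626, 0.597 to 0.656). Lum, which regulates fibril spacing in cornea and skin, stood at 774 and 671 CPM, a ratio of 0.867 (0.852 to 0.882). The 3 sparse members went the other way in this class, on few molecules. Prelp, which links basement membranes to the matrix, had 76 UMIs in control and 101 in mutant dermal cells, a ratio of 2.36 (1.73 to 3.22). Fmod, which competes with lumican for binding to collagen, had 70 and 60 UMIs, a ratio of 1.52 (1.06 to 2.18), and Omd, known mainly from bone, had 16 and 13 UMIs, a ratio of 1.44 (0.638 to 3.20).

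With cluster 6 counted as dermal, an alternative chosen after seeing the data, the ratios were 0.316 for Aspn, 0.663 for Bgn, 0.639 for Ogn, 0.794 for Dcn and 0.882 for Lum. The same 3 genes were lower by at least 1.5-fold, beside 8.4% of 8155 genes past that line (4.34% lower, 4.06% higher). Fmod then changed side, from a ratio of 1.52 to 0.759 (0.575 to 0.992), and Prelp stood at 1.49 (1.23 to 1.80). Other gene sets differed between the dermal sums as well. Of 9 measured genes of dissociation stress 5 were higher in the mutant library (median log2 ratio 0.80), and 4 with cluster 6 (median 0.32). Of 5 measured hemoglobin genes 4 were higher, the erythroid marker list summing to 215 CPM in control and 984 CPM in mutant dermal cells. The part of the stress genes in the lower levels of Aspn, Bgn and Ogn was not tested. With hemoglobin left out of the total, the median log2 ratio of the 5 members was again -0.67. Markers of macrophages summed to 4.03 CPM in control and 4.75 CPM in mutant dermal cells, and those of epidermis to 46.5 and 47.0 CPM.

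**Figure D1:**
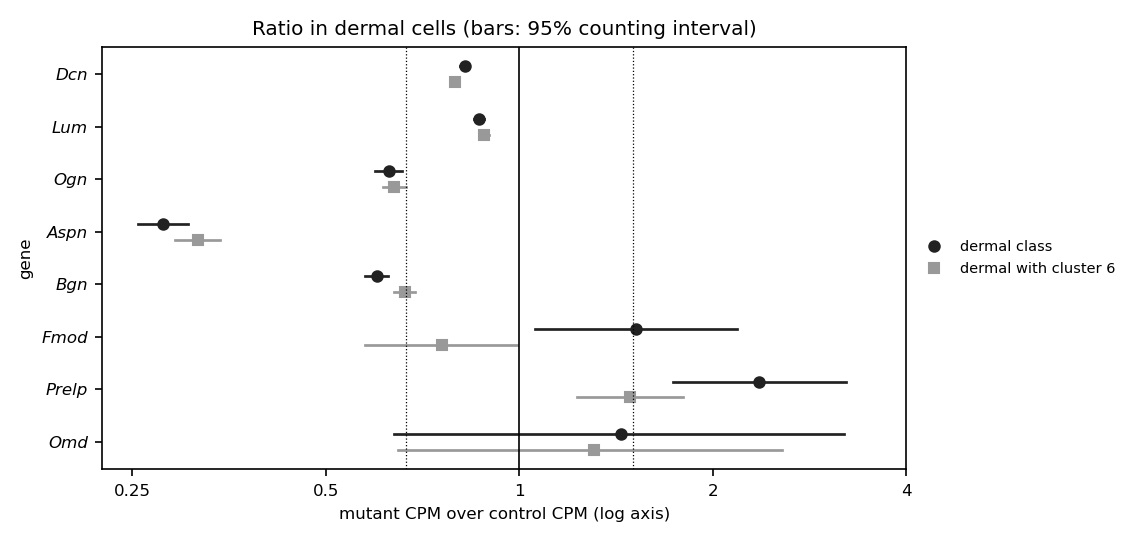
Ratio of mutant to control CPM for the 8 genes on a log axis, in the dermal class (circles) and with cluster 6 added (squares); bars are 95% counting intervals and dotted lines mark 1.5-fold. Aspn, Bgn and Ogn lie left of the lower dotted line in both settings, at 0.279, 0.600 and 0.626 in the dermal class, while Fmod lies on opposite sides of 1.

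The share of dermal cells with a UMI gave the same order of differences. After each cell was thinned to 3000 UMIs, which left out 209 control and 229 mutant dermal cells as too shallow, Aspn was found in 12.6% of control cells (11.85 to 13.47) and 4.65% of mutant cells (4.03 to 5.34). Without thinning these shares were 18.3% and 7.52%. Bgn was found in 41.6% and 28.5% of thinned cells, Ogn in 26.3% and 18.7%, Dcn in 85.9% and 76.3% and Lum in 84.5% and 78.8%. Unthinned, Bgn was in 69.9% and 47.7%, Ogn in 40.3% and 30.9%, Dcn in 95.3% and 87.5% and Lum in 95.6% and 89.7%. Macrophages, which should lack these RNAs, gave a reading of free RNA: at median depths of 10973 and 8654 UMIs against 7108.5 and 6214 in dermal cells, Dcn was in 3.26% and 1.92% of thinned macrophages and Lum in 0.890% and 1.28%. Aspn and Ogn were found in 0 of 337 control and 0 of 312 mutant macrophages at this depth, which allows shares of up to 0.890% and 0.962%. Fmod, Prelp and Omd were each in at most 1.013% of thinned dermal cells, close to these limits, so that no difference in their shares was read.

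The 5 abundant members differed among the dermal clusters more than between the libraries of 1 cluster. Aspn was highest in cluster 2, at 206 CPM in 2079 control cells and 76.4 CPM in 173 mutant cells, a ratio of 0.371 (0.284 to 0.476). Ogn was also highest there, at 311 and 189 CPM (0.609, 0.515 to 0.714). In cluster 7, led by Nrgn, Calb1 and Crabp1, Aspn had 14 UMIs in 1670 control cells (1.24 CPM) and 1 UMI in 112 mutant cells. The Aspn level in control cells thus ran from 1.24 CPM in cluster 7 through 5.91 CPM in cluster 4, 29.4 CPM in cluster 0 and 60.0 CPM in cluster 3 to 206 CPM in cluster 2, with intervals that did not overlap between neighbours in this order.

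Within the 5 clusters with at least 30 cells of each library, the members other than asporin mostly did not show the difference of the whole class. Of the 4377 mutant dermal cells, clusters 0, 2, 3, 4 and 7 held 117, 173, 301, 58 and 112. Both libraries were clustered together, so these are the mutant cells that grouped with control cells. Their ratios cannot stand for the mutant dermis as a whole. The Bgn ratio was 0.895 (0.752 to 1.06) in cluster 2, 0.948 (0.813 to 1.10) in cluster 3, 0.944 (0.791 to 1.12) in cluster 0, 0.943 (0.710 to 1.23) in cluster 4 and 0.966 (0.800 to 1.16) in cluster 7. In all 5 the interval held 1, whereas the class as a whole gave 0.600. The Dcn ratio was 0.844 (0.792 to 0.899) in cluster 2 but above 1 in the other 4: 1.21 in cluster 3, 1.36 in cluster 0, 1.34 in cluster 4 and 1.13 in cluster 7. Ogn, lower in cluster 2, was above 1 in cluster 0 (1.39, 1.06 to 1.81), and its interval held 1 in cluster 3 (1.07), cluster 7 (1.12) and cluster 4 (0.816), whereas the class gave 0.626. The Lum ratio was 0.965 in cluster 2 and 1.085 in cluster 7, with intervals that held 1, and 1.17 in cluster 0, 1.07 in cluster 3 and 1.14 in cluster 4, with intervals above 1. Aspn was below 1 in cluster 3 too, at 60.0 CPM in control and 37.8 CPM in mutant cells (0.631, 0.474 to 0.828), and in cluster 0 its interval held 1 (0.871, 0.526 to 1.36). Clusters 4 and 7 held 1 mutant Aspn UMI each.

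In the clusters with almost no control cells, biglycan was low throughout and the other members varied. Clusters 1, 8 and 20 held 3, 6 and 0 control cells. In cluster 1, 1284 mutant cells led by Hhip, Ptch1 and Shox2, Bgn stood at 95.7 CPM, Aspn at 13.3 CPM, Ogn at 56.8 CPM and Dcn at 640 CPM. In cluster 8, 1580 mutant cells, Bgn stood at 110 CPM, Aspn at 26.9 CPM, Ogn at 119 CPM and Dcn at 944 CPM. Dcn and Ogn in cluster 8 were thus above their levels in control cells of clusters 0, 4 and 7, at 796, 597 and 703 CPM for Dcn and 57.1, 58.7 and 48.2 CPM for Ogn. Cluster 20, 752 mutant cells led by Gal, Foxd1 and Cdkn1a, had Ogn at 11.4 CPM and Dcn at 379 CPM, both below the values of the other dermal clusters of the mutant library, and 1 Aspn UMI, while Lum stood at 588 CPM and Bgn at 122 CPM. Bgn in clusters 1, 8 and 20 was below the 142 to 216 CPM of clusters 0, 2, 3, 4 and 7 in the control library. Control cells of cluster 6, outside the dermal class, held Bgn at 123 CPM (117 to 130), close to cluster 20.

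**Figure D2:**
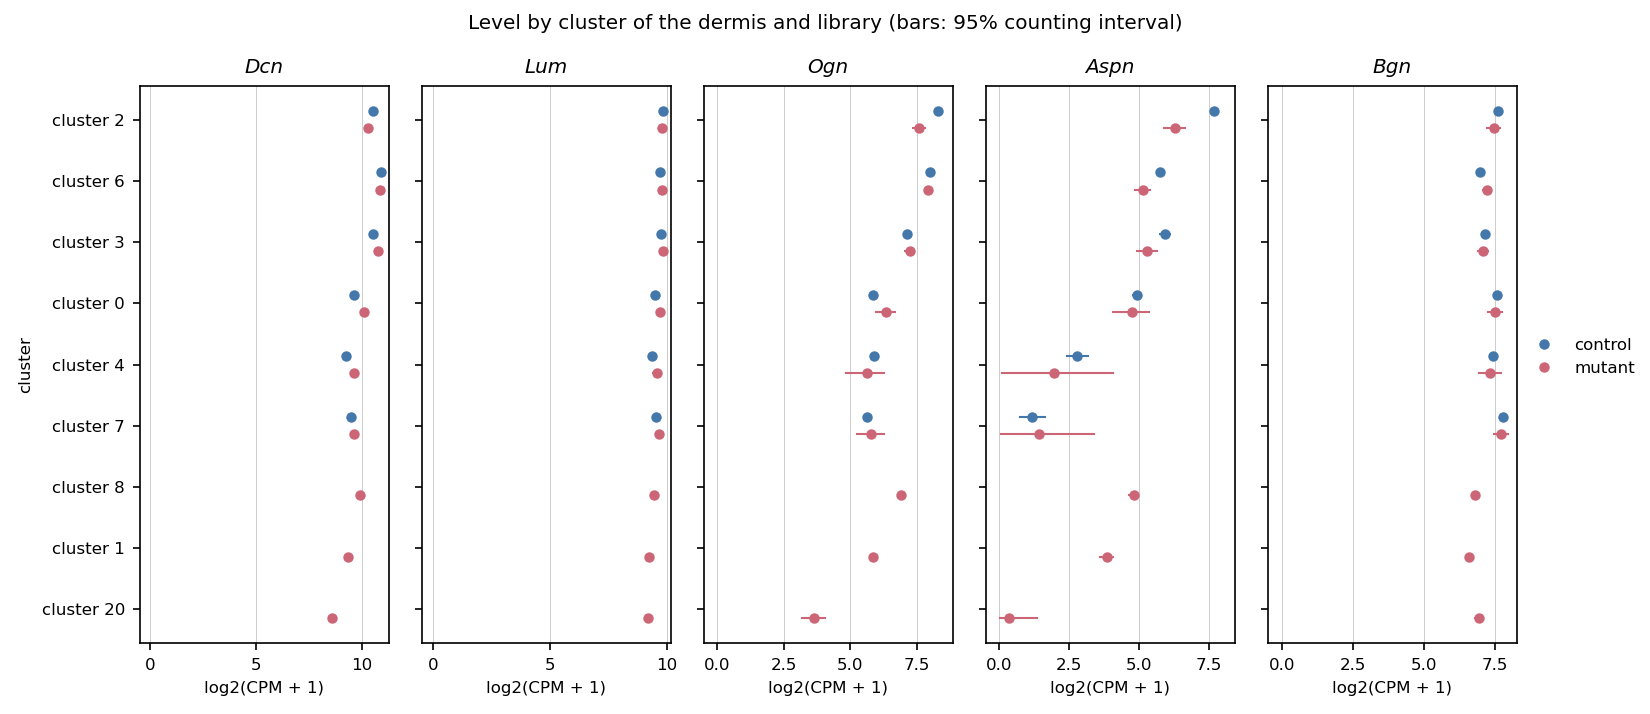
Level of 5 genes as log2(CPM + 1) in each cluster of the dermis and in cluster 6, for the control (blue) and mutant (red) library; bars are 95% counting intervals, and a library with under 30 cells of a cluster is not drawn. Aspn falls from 206 CPM in control cells of cluster 2 to 1.24 CPM in cluster 7, and clusters 8, 1 and 20 hold mutant points alone.

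Cluster 6 itself held high levels of decorin, osteoglycin, Prelp and fibromodulin and showed smaller differences between libraries for most members. Dcn stood at 1888 CPM in control and 1831 CPM in mutant cells (ratio 0.970, 0.943 to 0.997), Ogn at 254 and 240 CPM (0.945, 0.874 to 1.02) and Lum at 838 and 882 CPM (1.053, 1.010 to 1.097). Aspn was again lower, at 52.8 and 34.1 CPM (0.645, 0.525 to 0.787), and Bgn was higher, at 123 and 148 CPM (1.201, 1.083 to 1.330). Here Fmod and Prelp reached 10 CPM, and they differed in opposite directions. Fmod stood at 10.7 and 4.99 CPM, on 129 and 17 UMIs (0.466, 0.263 to 0.776), and Prelp at 15.03 and 27.61 CPM, on 181 and 94 UMIs (1.84, 1.42 to 2.37). Of the 7 members measured, 1 was higher and 2 were lower by at least 1.5-fold, beside 5.55% of 8203 genes past that line in cluster 6 (1.93% lower, 3.62% higher).

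Dermal subsets were also drawn as ranges of single-cell UMIs, from genes outside the family, in cells thinned to 3000 UMIs. A condensate gate took cells with at least 2 of Foxd1, Sox18, Sox2, Gal and Trps1, genes of the dermal condensate that forms under hair placodes. A Hedgehog gate then took cells with a UMI of Ptch1, Gli1 or Hhip, and a Lef1 gate cells with a UMI of Lef1, an effector of Wnt. The rest were split by Crabp1, which marks upper dermis at this stage, at 5 UMIs, with 500 control and 122 mutant cells holding 4 or 5. The gates took 1 control and 518 mutant cells for the condensate, 282 and 2187 for Hedgehog, 560 and 115 for Lef1, 3121 and 367 for high and 2687 and 961 for low Crabp1. The cells that a gate took were not alike between libraries. In the Crabp1-low gate Ptch1 stood at 2.03 CPM in control and 74.3 CPM in mutant cells. In the Crabp1-high gate Crabp1 itself stood at 4438.6 and 3317.8 CPM. A ratio within a gate is therefore not a comparison of matched cells.

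Asporin and osteoglycin were highest where Crabp1 was low, and they were lower in the mutant library there and in the Lef1 gate. Osteoglycin was also slightly lower in the Hedgehog gate. In the Crabp1-low gate Aspn stood at 154 CPM in control and 33.2 CPM in mutant cells, 4.64-fold lower (ratio 0.215, 0.187 to 0.247), and Ogn at 229 and 113 CPM, 2.04-fold lower (0.491, 0.454 to 0.531). In the Crabp1-high gate Aspn stood at 15.8 and 15.1 CPM (0.957, 0.660 to 1.35) and Ogn at 68.8 and 64.6 CPM (0.940, 0.791 to 1.11), with intervals that held 1. In the Lef1 gate Ogn stood at 50.9 CPM in control and 19.5 CPM in mutant cells (0.384, 0.207 to 0.658), and Aspn had 74 and 1 UMIs (0.084, 0.0021 to 0.481). These ratios were further from 1 than those of the Crabp1-low gate, on 115 mutant cells and with wider intervals. In the Hedgehog gate Ogn stood at 103 CPM in control and 88.3 CPM in mutant cells (0.855, 0.743 to 0.988). Aspn there stood at 24.9 and 18.7 CPM (0.752, 0.562 to 1.02), with an interval that held 1. The Crabp1-high levels depended on where Crabp1 was split: from 10 UMIs Aspn stood at 2.97 CPM in control and 6.19 CPM in mutant cells, and Ogn at 38.7 and 38.2 CPM. Thinned to 2000 UMIs, Aspn in this gate stood at 8.13 and 10.9 CPM, so that its direction turned under both settings. Whether the ratios of the gates differ beyond the spread of embryos was not tested. Dcn followed Crabp1 in the same sense, at 1379 and 1114 CPM in the low gate and 750 and 689 CPM in the high gate. Lum varied less, at 862 and 776 CPM in the low and 723 and 678 CPM in the high gate.

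Biglycan varied little among the gates of the control library, from 180 CPM in the Crabp1-low gate and 181 CPM in the Hedgehog gate to 196 CPM in the Crabp1-high and 206 CPM in the Lef1 gate. In the mutant library it stood at 115 CPM in the Crabp1-low, 109 CPM in the Hedgehog, 154 CPM in the Crabp1-high and 147 CPM in the Lef1 gate. It was thus lower in the mutant library in each of these 4 gates, with ratios of 0.640, 0.601, 0.784 and 0.713 and no interval that held 1. In clusters 0, 2, 3, 4 and 7, by contrast, every Bgn interval held 1. Why gates and clusters differ was not tested. Dcn in the Hedgehog gate stood at 791 CPM in both libraries, though the cells of this gate differed. Ptch1 there stood at 65.2 CPM in control and 345.5 CPM in mutant cells, and Crabp1 at 3636.5 and 1120.2 CPM.

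The 518 mutant cells of the condensate gate had the lowest levels of Dcn, Lum and Bgn among the 5 gates of the mutant library, at 382, 537 and 94.8 CPM. The interval of Bgn (84.1 to 106.5) overlapped that of the Hedgehog gate (103.7 to 114.1). Ogn stood at 13.01 CPM, with an interval (9.26 to 17.8) that overlapped that of the Lef1 gate, and at 34.4 CPM where the gate asked for 1 of the 5 genes and 5.12 CPM where it asked for 3. Aspn had 6 UMIs there, or 2.002 CPM (5.23 CPM with 1 gene asked for), and 1 UMI in the smaller Lef1 gate. The 1 control cell of this gate allows no comparison. Among mutant dermal cells split by their thinned UMIs of Ptch1, Gli1 and Hhip, the levels of Dcn were 940 CPM at 0 UMIs, 769 CPM at 1, 716 CPM at 2 or 3 and 684 CPM at 4 or more. Aspn in the same ranges stood at 25.1, 19.8, 13.6 and 15.6 CPM, and Bgn at 125, 111, 105 and 104 CPM. Aspn and Bgn were therefore lower than in the control dermis, at 72.2 and 190 CPM in control cells with 0 such UMIs, also in mutant cells without a Hedgehog UMI at this depth. The 400 mutant dermal cells with a thinned eYFP UMI held Aspn at 18.8 CPM and the 3748 without one at 19.6 CPM, with overlapping intervals. At 31.9 CPM in the mutant dermal class, eYFP can be missed in cells that carry it. The split therefore does not separate recombined from other cells, and whether Aspn differs between them was not tested.

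**Figure D3:**
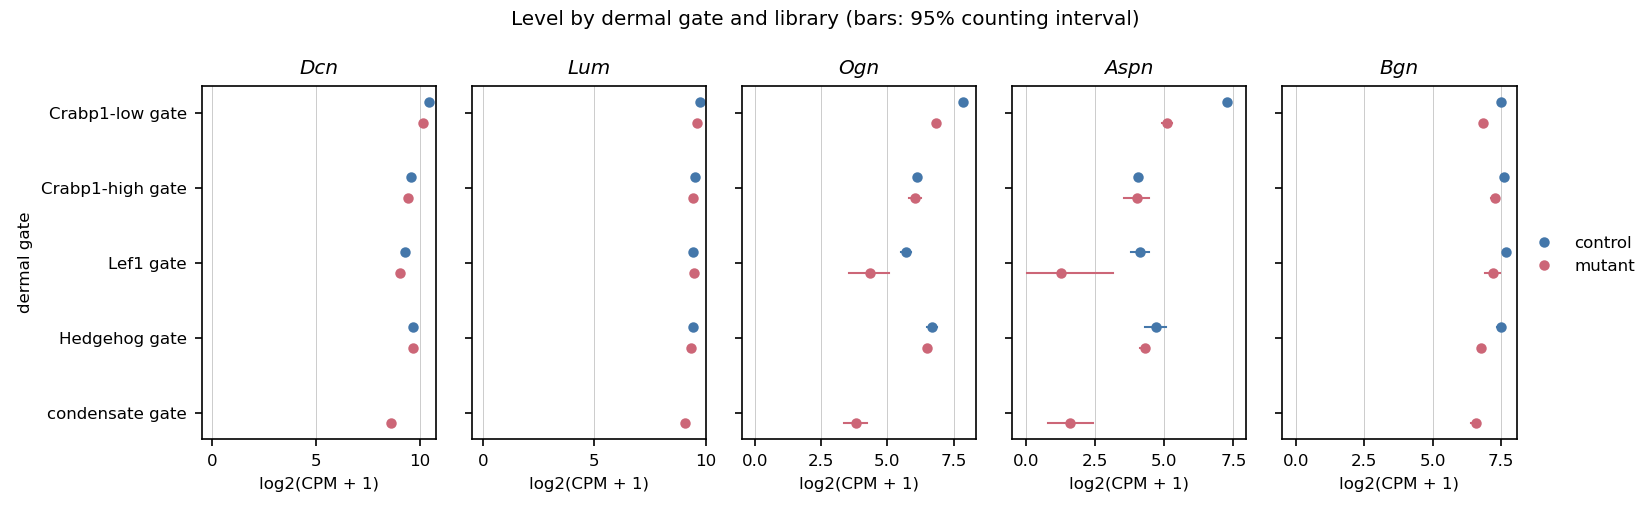
Level of 5 genes as log2(CPM + 1) in the 5 dermal gates for the control (blue) and mutant (red) library; bars are 95% counting intervals, and the single control cell of the condensate gate is not drawn. Aspn and Ogn lie apart between libraries in the Crabp1-low gate, at 154 against 33.2 CPM and 229 against 113 CPM, and further apart, with wide mutant bars, in the Lef1 gate, where Aspn rests on 74 and 1 UMIs.

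Outside the dermis the members parted. Levels in mural cells, the pericytes and smooth muscle around vessels, were the highest of any class for Aspn, at 163 CPM in 157 control cells and 187 CPM in 130 mutant cells (ratio 1.15, 0.964 to 1.37). Bgn in mural cells stood at 161 and 167 CPM (1.04, 0.866 to 1.24) and Dcn at 397 and 416 CPM (1.05, 0.935 to 1.17). Of the 5 members measured in mural cells 0 were past 1.5-fold, beside 11.7% of 7837 genes (4.89% lower, 6.8% higher). The lower Aspn and Bgn levels of the mutant dermis thus had no counterpart of that size in mural cells, although a difference between the classes was not tested. Markers of dermis summed to 4384 CPM in control and 3736 CPM in mutant mural cells, and the part of dermal RNA in the mural levels was not tested.

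Epidermal cells carried decorin but little of the other members. Dcn stood at 279 CPM in 553 control cells and 205 CPM in 1392 mutant cells (ratio 0.735, 0.690 to 0.784), with 1612 and 2296 UMIs. Epidermal cells held 38.4 Dcn UMIs for each Lum UMI in the control and 33.3 in the mutant library, beside 1.28 and 1.21 in dermal cells and 1.16 and 2.29 in macrophages. The macrophage values rest on 29 Dcn and 25 Lum UMIs in the control and 32 and 14 in the mutant library. The part of free dermal RNA in the epidermal Dcn level was not tested. Among cells without a Col1a1 UMI after thinning, 526 in the control and 1339 in the mutant library, Dcn stood at 277 and 205 CPM. These cells can still hold Col1a1 UMIs at full depth, so the split does not set dermal RNA aside. A UMI of Dcn was found in 54.1% of control and 42.7% of mutant epidermal cells after thinning (84.3% and 71.1% without it). Lum stood at 7.27 and 6.16 CPM, near the 6.24 and 4.84 CPM of macrophages, and Aspn had 0 UMIs in control epidermal cells, which allows up to 0.519 CPM, and 1 UMI in the mutant library.

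The lower epidermal Dcn of the mutant library was seen in both epidermal clusters, with ratios of 0.737 (0.678 to 0.802) in cluster 5 and 0.728 (0.658 to 0.806) in cluster 16. It was also seen in cells with a thinned UMI of Krt1 or Krt10, keratins of differentiating layers, at 279 and 169 CPM, and in cells without one, at 279 and 214 CPM. Control cells with a thinned UMI of Dkk4, a gene of the hair placode, held Dcn at 275 CPM, close to the 279 CPM of the others. Dcn is the 1 member measured in epidermis, and it was within 1.5-fold, beside 6.16% of 7319 genes past that line (2.51% lower, 3.65% higher). Fmod was also found there, on 18 control and 52 mutant UMIs (3.11 and 4.64 CPM; ratio 1.49, 0.858 to 2.71), and had 0 UMIs in macrophages of both libraries.

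In muscle cells osteoglycin was higher and biglycan slightly lower in the mutant library. Ogn stood at 21.7 CPM in 993 control cells and 37.6 CPM in 723 mutant cells, a ratio of 1.73 (1.46 to 2.05), against the lower level it had in the mutant dermis. It was 1 of 3 members measured in muscle and past 1.5-fold, beside 3.08% of 7174 genes (0.934% lower, 2.15% higher). The ratio was 1.86 (1.54 to 2.25) in cluster 12, led by genes of muscle progenitors, and 1.37 (0.936 to 2.002) in cluster 14, where Myog and other differentiation genes led. Median depth in muscle was 14477 UMIs in the control and 8716 in the mutant library, and of 8 measured genes of dissociation stress 5 were higher and 1 lower in mutant muscle (median log2 ratio 0.62), and 6 of 6 hemoglobin genes were higher. The part of depth and of these genes in the Ogn difference was not tested. Bgn in muscle stood at 23.1 and 17.8 CPM (0.773, 0.622 to 0.954) and Dcn at 19.3 and 15.4 CPM (0.800, 0.632 to 1.005).

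Biglycan reached into the vessel lining and glia. Bgn, known as a product of endothelial cells too, stood at 46.8 CPM in 143 control and 48.5 CPM in 161 mutant endothelial cells (ratio 1.036, with an interval that held 1), while Ogn and Aspn had at most 4 UMIs in either library there, and Dcn had 33 and 7. In glia Bgn stood at 14.8 and 25.6 CPM, on 38 and 22 UMIs (1.74, 0.979 to 3.01). Macrophages held 5 and 2 Bgn UMIs and melanoblasts held 0. Cells that passed as erythroid carried Dcn at 432 and 496 CPM and Lum at 272 and 332 CPM, with 1.59 and 1.49 Dcn UMIs for each Lum UMI. Their dermal markers summed to 3582 and 3205 CPM, and the part of dermal RNA in their counts was not tested.

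**Figure D4:**
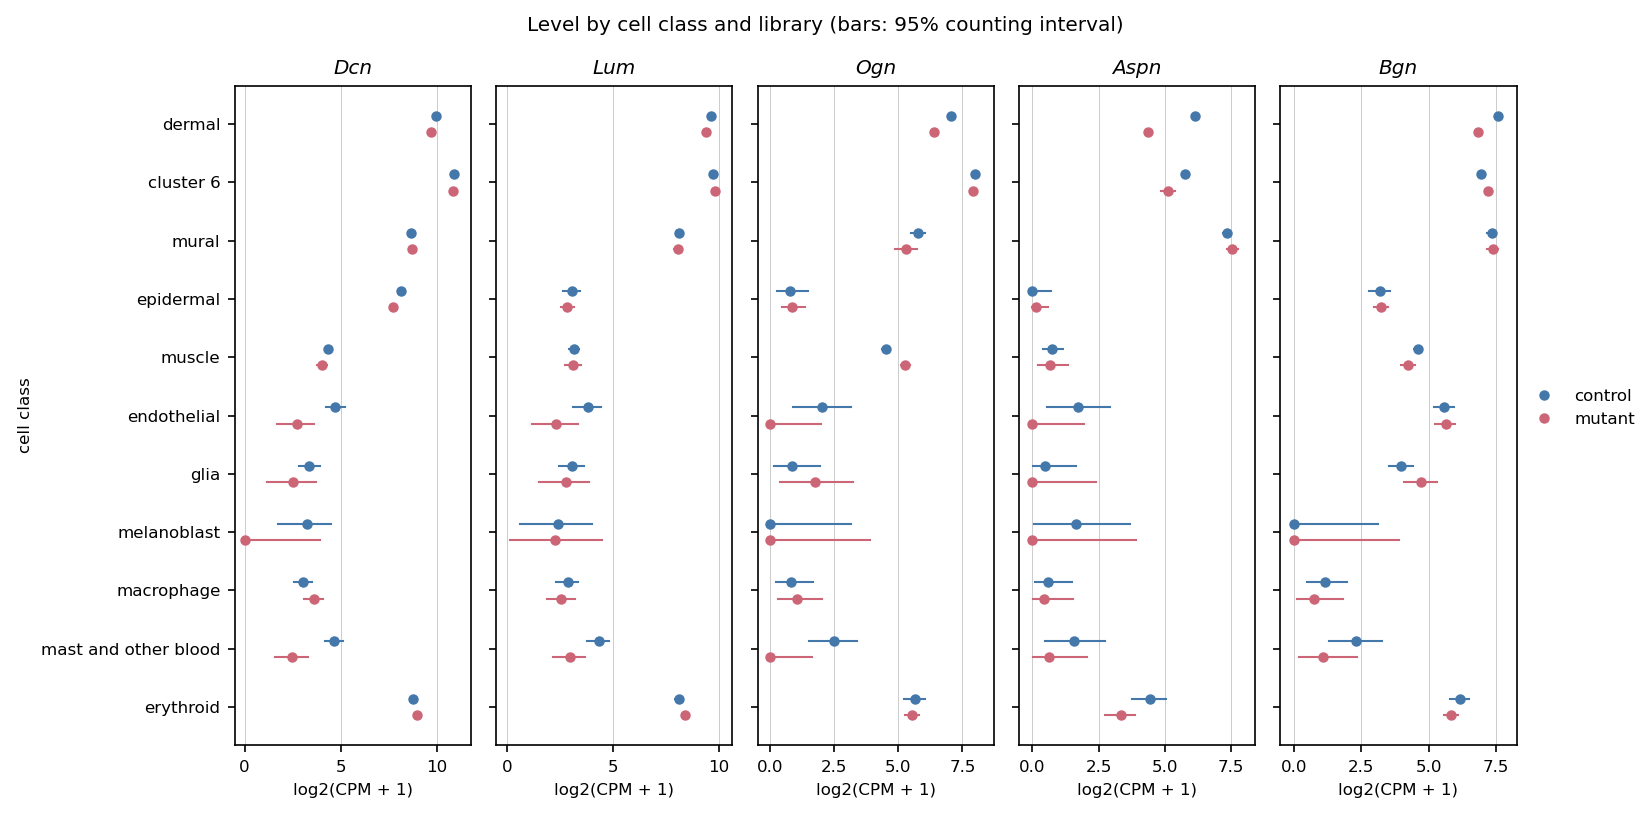
Level of 5 genes as log2(CPM + 1) in each cell class and in cluster 6 for the control (blue) and mutant (red) library; bars are 95% counting intervals. Aspn is highest in mural cells at 163 and 187 CPM, Dcn alone is high in epidermal cells at 279 and 205 CPM, and Bgn extends to endothelial cells at 46.8 and 48.5 CPM.

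Across the 22 sums of 11 cell groups in each library, the members' levels were set against those of 5480 genes with at least 50 CPM in 1 sum, as log2(CPM + 1). These points share libraries and depths, and the values are a description. Aspn was most like En1, a homeobox gene (Pearson r 0.970), Kcnj8, a channel of pericytes (0.937), and Prrx2, a homeobox gene of mesenchyme (0.935). Ogn was most like Dlk1 (0.980), 2700069I18Rik (0.971) and Lrrc17 (0.969). Bgn was most like the fibrillin gene Fbn2 (0.948), the sulfotransferase gene Chst2 (0.945) and Tgfb1i1 (0.944). Lum was most like Pappa2 (0.982), the fibroblast receptor gene Pdgfra (0.980) and Twist1 (0.980). Dcn and Fmod shared their first pair, Smoc2 (0.953 with Dcn, 0.915 with Fmod) and the glutamate transporter gene Slc1a3 (0.951 and 0.908), followed by Efemp1 for Dcn (0.932) and Ptn for Fmod (0.895). Prelp was most like Prph (0.928), Gdf10 (0.927) and Mfap5 (0.915). Prelp was highest in cluster 6, where Prph was a leading gene. Both Prelp and Fmod had 0 UMIs in the macrophage and melanoblast sums of both libraries, so their values rest on few sums. Omd, on few UMIs, was most like Col16a1 (0.699), Mfap5 (0.683) and Sema3c (0.645).

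Genes that build, process or bind these proteins were listed apart, and their counts stand beside the 4.8% higher and 5.34% lower of all genes in the dermis (4.06% and 4.34% with cluster 6). In dermal cells none of the 10 other genes of the family, such as Kera and Epyc, reached 10 CPM, and with cluster 6 Kera did, at 10.4 CPM in control and 4.72 CPM in mutant cells. Of 12 measured enzymes of chondroitin and dermatan sulfate chains 0 were past 1.5-fold (median log2 ratio -0.10). Of 4 enzymes of keratan sulfate chains, Chst1, a sulfotransferase, was lower 1.80-fold (19.0 and 10.6 CPM), and the median was -0.30. With cluster 6 the chain enzymes gave the same counts. Of 14 collagens and cross-linking enzymes 3 were higher and 1 lower (median 0.06). Col6a3 stood at 92.4 CPM in control and 199 CPM in mutant cells, Col11a1 at 20.4 and 38.0 CPM and the lysyl oxidase gene Loxl1 at 19.2 and 29.3 CPM. Col1a2, a chain of the collagen that these proteoglycans coat, stood at 1717 and 1134 CPM, 1.51-fold lower. With cluster 6 counted as dermal, 1 of the 14, Col6a3 (92.3 and 192.8 CPM), was higher and 0 were lower (median -0.09), so that Col11a1, Loxl1 and Col1a2 were then within 1.5-fold.

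Among 7 proteases and enhancers, Adamts5 (9.84 and 24.1 CPM) and Adamts9 (36.9 and 71.5 CPM), which cleave matrix proteoglycans, were higher and 0 were lower (median 0.11). With cluster 6 Adamts9 was higher, Adamts5 was within 1.5-fold and Mmp2, a gelatinase, was lower (76.6 and 49.2 CPM; median -0.04). Decorin and asporin can bind ligands of the TGF-beta family. Of 7 measured genes on a list of these growth factors and their receptors, 2 were higher and 2 lower (median 0.03). The 7 include Ccn4, a gene outside the family, which was within 1.5-fold. Bmp2 stood at 10.4 CPM in control and 37.4 CPM in mutant cells and Tgfbr2 at 32.1 and 54.2 CPM, whereas Tgfb2 stood at 31.8 and 14.5 CPM and Bmp4 at 52.6 and 26.3 CPM. With cluster 6 Bmp2 was higher and Tgfb2 and Bmp4 lower, while Tgfbr2 was within 1.5-fold (median -0.05). Of 3 measured receptors named for decorin or biglycan 0 were past 1.5-fold (median 0.13), with cluster 6 or without it.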

How the data were processed

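Skin cells were profiled with a 10x Genomics 3′ kit (v3.1) after 20 minutes in 0.25% trypsin at 37 °C and a DAPI sort, per the labels' protocols. The deposited matrices hold raw UMI counts, 1 matrix per library, made with Cell Ranger 5.0.1 on mm10, per the submitters' processing notes; an eYFP feature is listed per the file headers. Of 32286 features, 32158 matched GENCODE M21 by identifier.

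Barcodes with under 1000 genes or over 10% mitochondrial UMIs were left out, as were Scrublet doublets (4.89% and 3.06%). Cells of both libraries were clustered (Leiden, resolution 1.0, 2000 variable genes, 30 components, 15 neighbours, scanpy 1.11.5) without the members and 10 relatives. Clusters were named from 15 marker lists (at least 3 markers at 10 CPM, and no leading gene from another list unless matched by its own). Counts were summed per class and library and scaled to CPM, which depends on the class total. Intervals are exact Poisson for a level, conditional binomial for a ratio and Clopper-Pearson for a share. Counts of 0 carry the limit of 3 counts. "Measured" means at least 10 CPM in either library, and "higher" or "lower" in a count means 1.5-fold with 1 CPM added. Dermal sums of 5610 genes were simulated with counting error alone, and 97% of the intervals of the 200 changed genes held the true ratio. This checks the computation only, since the draws follow the error that the intervals assume and hold no spread between cells or embryos.

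All 8 members are named, up to 3 genes each way per list, and the 3 genes most like each member. Members and lists were chosen with earlier results of these data known. No test between groups was made, since each had 1 library. Alternatives changed filters, doublets, scaling, depth, clustering, class definition, gates and the CPM added.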

Additional observations from a re-analysis of the deposited data

Results flagged for a closer look

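Ogn in muscle cells went against its dermal difference: the ratio of mutant to control was 1.73 in muscle and 0.626 in dermal cells. The difference between the classes was not tested. Lum and Bgn in cluster 6 also went against the dermal class, with ratios of 1.053 and 1.201 beside 0.867 and 0.600, and these differences were not tested either.

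Barcodes left out for few genes, which enter no comparison above, also held the members. Those that were not mostly hemoglobin numbered 1037 in the control and 639 in the mutant library. Dcn in them stood at 445 CPM (405 to 488) in the control and 539 CPM (485 to 598) in the mutant library. Lum stood at 385 CPM (349 to 425) and 296 CPM (256 to 340).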

How the results depend on the processing

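Of 88 recomputed dermal ratios of the 8 members, 68 moved by less than their counting interval and 20 moved by more. With cells thinned to 3000 UMIs Dcn stood at 0.802 and Bgn at 0.635. At Leiden resolution 0.5 the ratios were 0.789 for Dcn, 0.844 for Lum, 0.593 for Ogn, 0.569 for Bgn and 4.16 for Prelp. With a marker gate in place of clusters they were 0.798 for Dcn, 0.884 for Lum, 0.383 for Aspn, 0.677 for Bgn, 0.763 for Fmod and 1.52 for Prelp. With the members among the clustering genes Dcn stood at 0.837, and with cells weighted equally Aspn at 0.252. With cluster 6 counted as dermal, chosen after seeing the data, they were 0.794 for Dcn, 0.316 for Aspn, 0.663 for Bgn, 0.759 for Fmod and 1.49 for Prelp. Fmod thus changed side under 2 of 11 alternatives, and Prelp moved by over 1.5 times under 3, while Aspn ranged from 0.252 to 0.383 and Ogn from 0.593 to 0.646. The cause was not tested.

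The median log2 ratio of the members was -0.75 at resolution 0.5, -0.56 with the marker gate, -0.59 with cluster 6 and -0.24 over all 8 members. The count of lower members was 3 in each alternative but the marker gate, which gave 2, since Bgn fell short of 1.5-fold. The share of all genes past 1.5-fold was 5.79% with no filter on level. Without thinning or at 2000 UMIs, 28 of 32 shares of cells moved beyond their intervals, and 55 of 180 gate levels did so under other gate settings. No paired analysis was possible because each group had 1 library. Depth limits Fmod, Prelp and Omd in the dermis and members other than Dcn in the epidermis, and 1 library per group leaves the spread between embryos unknown.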
